A study of Mus musculus with 12 samples.

Results

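The genes described here are 10 markers of the choroid plexus epithelium other than the transthyretin gene Ttr, namely Kl, Folr1, Clic6, Kcnj13, Otx2, Aqp1, Enpp2, Sostdc1, Prlr and Trpv4. They were taken by name, and all 10 were found among the 55401 genes of the count table. The question put to them was whether reads of Ttr in the cortex came together with reads of plexus tissue. The samples were poly(A) RNA of prefrontal cortex. The mice were C57BL/6J males, 14 weeks old, whose dorsomedial prefrontal cortex had received an adeno-associated virus (AAV, used to carry genes into cells) bilaterally 4 weeks before. The Ttr overexpression group received a vector in which the CAG promoter drives GFP joined through a P2A peptide to Ttr. The Ttr knockdown group received a vector with a short hairpin RNA against Ttr behind the U6 promoter and GFP behind CAG. The control group received a CAG-GFP vector without Ttr or hairpin, from another supplier than the other two vectors. All 3 groups therefore carried virus and GFP, and no uninjected brain was among the 12 libraries, 4 in each group. CAG is active in many cell types, and the labels name no cell type to which the vectors were restricted. Library totals lay between 19879629 and 37166146 counts.

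The choroid plexus is a fold of vascular tissue inside the brain ventricles, covered by an epithelium that secretes cerebrospinal fluid. Ttr, which carries thyroid hormone and retinol, is among the most abundant messenger RNAs of that epithelium, together with transporters, channels and receptors that serve fluid secretion and the passage of vitamins and hormones. Several of the genes used as plexus markers are also made by other cells of the brain, such as oligodendrocytes, neurons and cells of the meninges. A piece of plexus in a dissection would bring Ttr and its other genes at once.

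The tissue had the markers of cerebral cortex, and libraries differed in what else they held. Markers of cortical excitatory neurons, such as the vesicular glutamate transporter gene Slc17a7, summed to 1861 to 2353 CPM over the 12 libraries (CPM, counts scaled to library size with TMM factors). Markers of striatal projection neurons, among them Ppp1r1b, summed to 784 CPM in overexpression replicate 4, 722 CPM in knockdown replicate 3 and 656 CPM in control replicate 4, and to 117 to 427 CPM in the other 9 libraries. Knockdown replicate 2 stood apart in 4 genes of olfactory bulb projection neurons (Cdhr1, Eomes, Tbx21 and Doc2g), which were chosen after values had been seen. They summed to 75.3 CPM there, 28.2 CPM in overexpression replicate 4 and 3.39 to 10.6 CPM in the other 10 libraries. Labels do not say that each library came from its own mouse, so p-values measure the spread between these libraries, part of which may be technical.

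The level of Ttr itself checks the labels of the overexpression libraries but does not tell knockdown from control. Overexpression replicates 1 to 4 held 20940, 8527, 7263 and 2121 counts of it. Knockdown replicates 1 to 4 held 3, 47, 29 and 13, and control replicates 1 to 4 held 14, 200, 18 and 18. Every overexpression library lay far above every other library, while knockdown and control overlapped, and control replicate 2 stood above the other controls. The fitted log2 value was 7.01 ± 0.81 for overexpression against control and -1.41 ± 1.16 for knockdown against control (SE, edgeR adjusted p = 0.0168 and 0.936). The first kept its direction, but its adjusted p was above the threshold of 0.05 with limma-voom (0.173), with only the 2 groups fitted (edgeR, 0.264) or without overexpression replicate 3 or control replicates 1, 3 or 4 (edgeR, 0.0506 to 0.162). Without control replicate 2 the second of these was 0.60, so a lower level with the hairpin rested on that library. The counts do not tell vector transcripts from those of the gene on chromosome 18.

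The 10 markers themselves were scarce, with the exception of Enpp2. Enpp2 (chromosome 15, 54838901 to 54952892, minus strand) encodes autotaxin, a secreted enzyme that makes lysophosphatidic acid and is also a gene of oligodendrocytes. Positions of the markers are those of GENCODE M21 genes on GRCm38. Enpp2 held 92.8% to 97.9% of all counts of the 10 markers in each library. Per length it reached 194 ± 19.4 TPM with overexpression, 175 ± 29.4 TPM with knockdown and 204 ± 29.0 TPM in controls (deposited TPM, which is scaled by gene length and library size, SD, n = 4 each). In controls the next were Kl at 1.36 ± 0.183 TPM and Trpv4 at 0.941 ± 0.148 TPM, with ranges apart from each other and from Enpp2. Below them came Clic6 at 0.717, Kcnj13 at 0.679, Sostdc1 at 0.490, Folr1 at 0.372, Aqp1 at 0.181 and Prlr at 0.158 TPM, each with a range that overlapped its neighbour. Otx2 was lowest in controls at 0.0378 ± 0.0353 TPM, apart from Prlr. The order of means was different in the groups with a Ttr vector or hairpin, where Kcnj13 (2.51 ± 1.12 TPM) came second with overexpression and Kl (1.60 ± 0.410 TPM) came second with knockdown. In both of these groups only 2 steps of the order had ranges that did not overlap, that below Enpp2 and that above Sostdc1.

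Several plexus genes were at or near 0, while others had more counts in every library. Folr1 (chromosome 7, 101858331 to 101870788, minus strand), the receptor that carries folate across the plexus into cerebrospinal fluid, had 3, 5, 11 and 2 counts with overexpression. It had 2, 7, 10 and 3 counts in the knockdown libraries and 0, 7, 5 and 8 in the controls. The sums of 21, 22 and 20 counts for overexpression, knockdown and control were nearly the same. Sostdc1 (chromosome 12, 36314139 to 36318452, plus strand), a secreted antagonist of BMP and Wnt signals, had 9, 10, 17 and 15 counts with overexpression, 8, 8, 12 and 6 with knockdown and 9, 11, 8 and 8 in controls. These ranges overlapped as well. Among 17 further plexus genes, listed with earlier results of these data known, 10 did not pass the expression filter. Lmx1a, a transcription factor of the plexus lineage, was at 0 in all 12 libraries, where a 0 in any single library allows an expected count of up to 3. Krt8, a keratin of simple epithelia, had 2 counts in all, and Tmem72, Steap1 and Slc28a3 had at most 5, 2 and 2 counts in any library. The other 7 passed, among them Slc13a4 with 24 to 559 counts, Car12, a carbonic anhydrase, with 266 to 795 and Slc2a12, a sugar transporter, with 68 to 175. Of the 10 markers Kl had 57 to 156 counts, and Clic6 and Kcnj13 reached 154 and 57 in single libraries.

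Otx2 (chromosome 14, 48657677 to 48673819, minus strand), a homeobox transcription factor needed for the formation and upkeep of the plexus, was at 0 in 4 of the 12 libraries. Counts were 10, 0, 5 and 11 in overexpression replicates 1 to 4, then 5, 0, 15 and 0 in knockdown replicates 1 to 4. Controls had 0, 1, 1 and 2 counts, and the ranges of all 3 groups overlapped. In a fit with no filter the log2 value was 2.49 ± 1.06 for overexpression against control and 2.17 ± 1.10 for knockdown against control (edgeR adjusted p = 0.781 and 0.810), which rests on 4 control counts. The highest 3 libraries in CPM, overexpression replicate 4, knockdown replicate 3 and overexpression replicate 1, were among the 4 highest in striatal markers. Control replicate 4, the remaining one of those 4, had 2 counts of Otx2. Folr1 had 2, 10 and 3 counts in the 3 libraries highest in Otx2. The part of striatal tissue in the level of Otx2 was not tested.

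Otx2 binds DNA through the core TAATCC, and the promoter windows of the markers were searched for it on both strands (GGATTA is the same core on the other strand). RefSeq windows on GRCm38.p6, each 250 bases before to 50 bases after a start site, were present for 6 of the markers (Kl, Kcnj13, Otx2, Aqp1, Prlr and Trpv4), 11 windows in all. The core was in 1 of the 11, against 7.06% of all 32851 windows. That window belongs to 1 of 4 listed start sites of Otx2 itself, on the minus strand at chr14:48665060-48665359, and it is shown because Otx2 is both a marker and the factor whose core was searched for. Capitals mark the match.
Otx2 promoter: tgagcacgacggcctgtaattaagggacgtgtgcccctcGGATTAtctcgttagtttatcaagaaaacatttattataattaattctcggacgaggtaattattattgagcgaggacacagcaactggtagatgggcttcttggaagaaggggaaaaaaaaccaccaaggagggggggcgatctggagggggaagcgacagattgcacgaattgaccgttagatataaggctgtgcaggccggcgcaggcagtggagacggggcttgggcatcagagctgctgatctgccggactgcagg
The match describes letters in this window and is no evidence of binding.

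**Figure D1:**
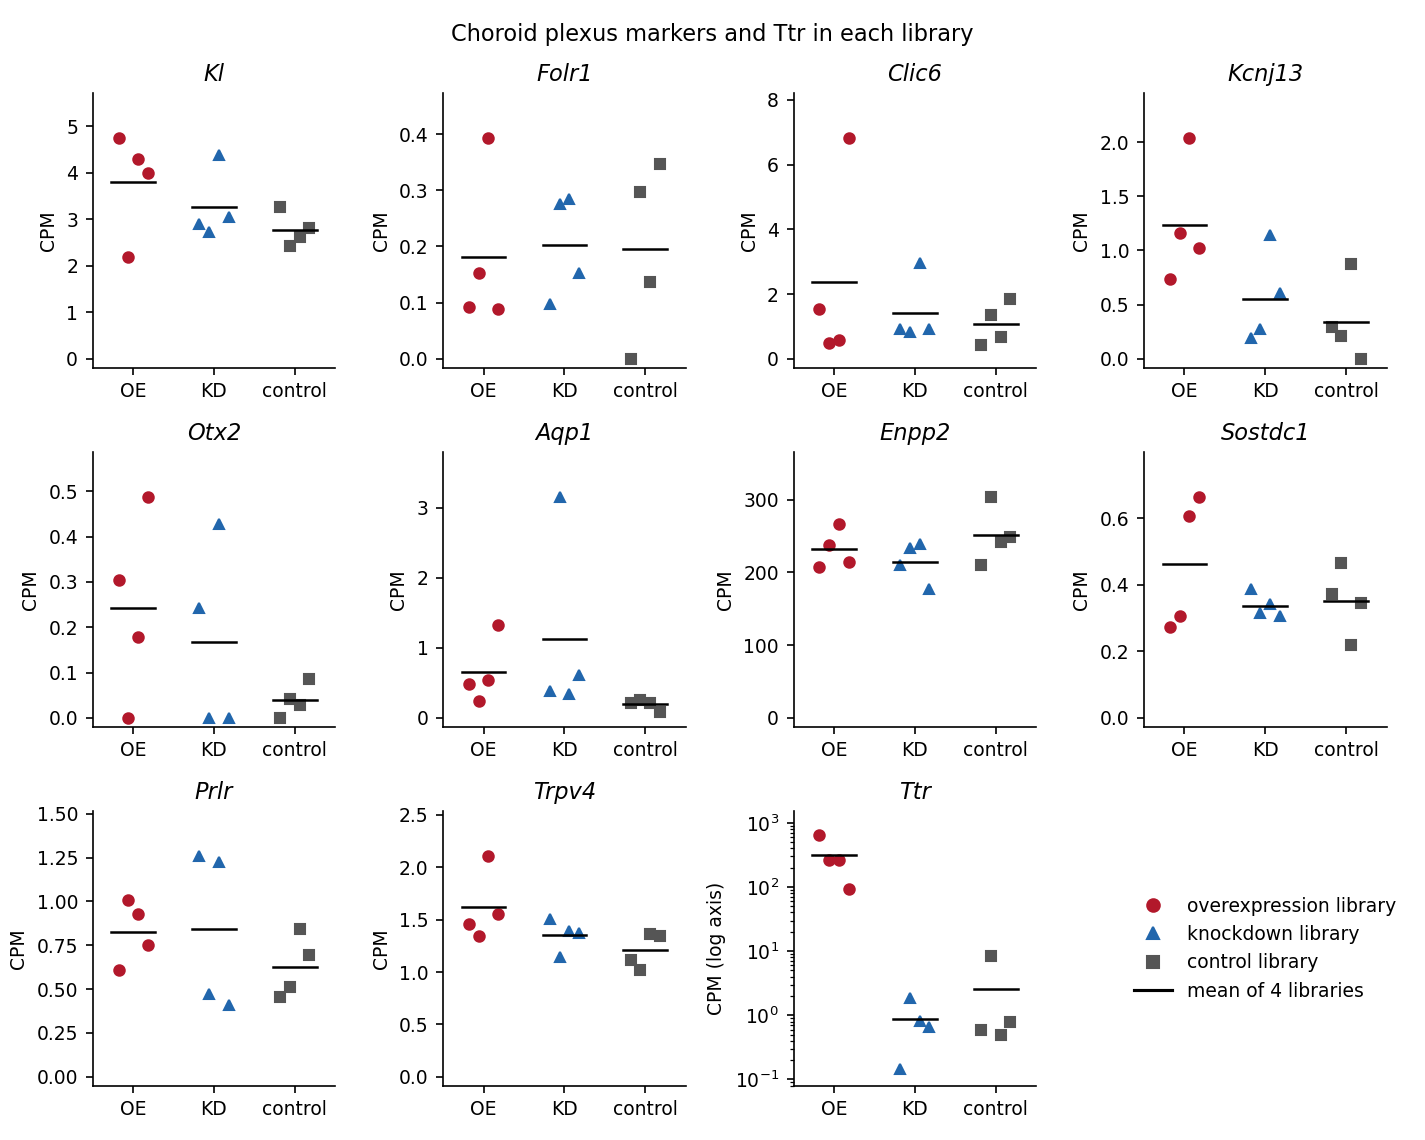
Level of each of the 10 markers and of Ttr in CPM (vertical axes, logarithmic for Ttr) in the 4 overexpression (OE), 4 knockdown (KD) and 4 control libraries. Points are libraries in the order of their replicate numbers and lines are group means. Single libraries carry the high values of Clic6 (6.83 CPM in overexpression replicate 4) and Aqp1 (3.16 CPM in knockdown replicate 2), while Ttr is far higher in all 4 overexpression libraries.

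In overexpression against control, which asks whether raised Ttr came with more plexus RNA, no marker passed the test. With edgeR's quasi-likelihood test and Benjamini-Hochberg adjustment over 18289 genes, 0 of the 7 markers that passed the filter were called, and 0.00547% of all genes were (Ttr alone). DESeq2 and limma-voom also called 0 of the 7, and DESeq2 called 0.208% of all genes. At an unadjusted edgeR p below 0.05 there were 2, Kcnj13 and Trpv4, both higher, where 6.26% of all genes were below it in either direction and 4.58% were below it and higher. Kcnj13 did not pass the filter when knockdown and control were fitted alone, so it was tested because of its overexpression libraries. Its p is therefore given as a description. None of the 7 had every overexpression library above every control, or every one below, against 1.88% and 0.837% of all genes. Folr1, Otx2 and Sostdc1 did not pass the filter, and a gene that passed only through a group in which it was high had to differ, so the 7 do not stand for all 10. In a fit with no filter 8 of the 10 had a positive log2 value, with a median of 0.43, beside 50.5% positive and a median of 0.0022 over all 34740 genes of that fit, and again 0 of the 10 passed. Bulk samples such as these cannot tell a change in the number of cells of a type from one in RNA per cell.

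Kcnj13 had the largest log2 value of the 7 in that comparison. It encodes the potassium channel Kir7.1 of the apical membrane of the plexus. Overexpression replicates 1 to 4 had 24, 38, 57 and 23 counts of it, while control replicates 1 to 4 had 7, 5, 32 and 0. The groups overlapped through control replicate 3. The means were 1.24 ± 0.563 CPM with overexpression and 0.344 ± 0.373 CPM in controls (SD, n = 4 each). The log2 value was 1.68 ± 0.65 (edgeR adjusted p = 0.748). Without control replicate 3 the value was 2.83 (edgeR adjusted p = 0.318). Knockdown libraries had 4, 7, 40 and 12 counts, and against control the log2 value was 0.62 ± 0.71 (edgeR adjusted p = 0.961), turning to -0.11 without knockdown replicate 3 and reaching 1.77 without control replicate 3. Overexpression against knockdown gave 1.06 ± 0.62 (edgeR adjusted p = 0.974). Of the 1270 exonic bases of Kcnj13, which lies on the minus strand of chromosome 1 at 87386363 to 87394729 (GRCm38), 623 are also exonic in Gigyf2 on the opposite strand. The strand setting of the counting is not given in the sources used here, so reads of the 2 genes may not be fully separated. Gigyf2 itself varied little, with 68.5 to 73.9 CPM over the 12 libraries.

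Kcnj13 was set beside other genes and the meningeal markers. Of all 18289 genes tested, those whose log2 CPM lay closest to that of Kcnj13 once each gene was centred on its own mean were Ogn, Fmod and Slc13a4. Their root mean square differences over the 12 libraries were 0.21, 0.25 and 0.30 on the log2 scale, while Kcnj13 had an SD of 1.33. Ogn and Fmod encode proteoglycans of the extracellular matrix, and Slc13a4 encodes a sulphate transporter of both meninges and plexus. The 11 meningeal fibroblast markers, Col1a2 and Dcn among them, summed to 83.1 to 143 CPM in overexpression libraries, 36.5 to 72.0 CPM in knockdown libraries and 23.6 to 75.9 CPM in controls. Control replicate 4 was lowest in these markers and had 0 counts of Kcnj13, and overexpression replicate 3 was highest in both. The part of meningeal tissue in the level of Kcnj13 was not tested.

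Trpv4 (chromosome 5, 114622152 to 114658421, minus strand), a cation channel that senses osmotic and mechanical stimuli, had 48, 44, 59 and 35 counts with overexpression against 27, 24, 50 and 31 in controls. Scaled to depth the groups met at the edge, with 1.34 to 2.11 CPM in overexpression libraries and 1.02 to 1.36 CPM in controls. The log2 value was 0.41 ± 0.18 (edgeR adjusted p = 0.792), and 0.25 without overexpression replicate 3. Knockdown libraries averaged 1.36 ± 0.151 CPM (SD, n = 4), a log2 value of 0.15 ± 0.18 against control (edgeR adjusted p = 0.963).

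Kl (chromosome 5, 150952607 to 150993817, plus strand) encodes klotho, a membrane protein that acts as a coreceptor for FGF23 and is also shed into cerebrospinal fluid. Its counts were 156, 72, 120 and 90 with overexpression, 60, 69, 154 and 60 with knockdown and 79, 57, 96 and 65 in controls. In CPM overexpression replicate 2 was the lowest of all 12 libraries, while the other 3 overexpression libraries (3.99 to 4.76) lay above all controls (2.42 to 3.27). Overexpression against control gave 0.45 ± 0.22 on the log2 scale (edgeR adjusted p = 0.819), and 0.65 ± 0.17 without overexpression replicate 2 (edgeR adjusted p = 0.199). Knockdown against control gave 0.25 ± 0.23 (edgeR adjusted p = 0.945), and 0.05 without knockdown replicate 3.

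Clic6 (chromosome 16, 92485736 to 92541243, plus strand), a chloride intracellular channel protein, was high in single libraries rather than in a whole group. Overexpression replicates 1 to 4 had 51, 16, 16 and 154 counts, and knockdown replicates 1 to 4 had 19, 21, 104 and 18. Controls had 10, 32, 25 and 43 counts. Overexpression replicate 4 and knockdown replicate 3 were each far above the rest of their group, and both were also the highest of all 12 libraries in striatal markers. Overexpression against control gave 1.10 ± 0.78 on the log2 scale (edgeR adjusted p = 0.860), turning to -0.28 without overexpression replicate 4. Knockdown against control gave 0.47 ± 0.80 (edgeR adjusted p = 0.982), turning to -0.26 without knockdown replicate 3.

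The genes closest to Clic6 over the 12 libraries were Htr1d, Ptpn7 and Ptprv, with root mean square differences of 0.33, 0.39 and 0.40 on the log2 scale beside an SD of 1.10 for Clic6. Htr1d encodes a serotonin receptor, and the other two encode tyrosine phosphatases. The 4 libraries highest in Clic6 (overexpression replicate 4, knockdown replicate 3, control replicate 4 and overexpression replicate 1) were the same 4, in the same order, as those highest in striatal markers. When the 3 libraries highest in striatal markers were left out, 1 from each group, Clic6 had a log2 value of 0.11 ± 0.48 in overexpression against control and 0.13 ± 0.51 in knockdown against control (edgeR adjusted p = 1.00 and 0.999). That fit was chosen after the values had been seen. The libraries left out were also the 3 highest in Clic6, so the step removed its own top values and cannot decide what raised them. The part of striatal tissue in the level of Clic6 was not tested.

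Aqp1 (chromosome 6, 55336432 to 55348555, plus strand) encodes the water channel of the apical plexus membrane. Its counts were 16, 8, 15 and 30 with overexpression, 8, 80, 12 and 12 with knockdown and 5, 6, 8 and 2 in controls. Knockdown replicate 2 held most of the counts of its group. In CPM every knockdown library (0.342 to 3.16) lay above every control (0.0867 to 0.255), as in 2.78% of all genes. Aqp1 did not pass the filter when either comparison with control was fitted on its own 2 groups, nor did Kcnj13 in knockdown against control. A gene that low in controls had to be higher elsewhere to be tested, so this separation is a description. Overexpression libraries (0.244 to 1.33 CPM) overlapped the controls through overexpression replicate 2. Knockdown against control gave 2.51 ± 0.80 on the log2 scale (edgeR adjusted p = 0.698, DESeq2 adjusted p = 0.170) and 1.14 ± 0.59 without knockdown replicate 2 (edgeR adjusted p = 0.904). Overexpression against control gave 1.65 ± 0.85 (edgeR adjusted p = 0.831), and 1.08 without overexpression replicate 4. Overexpression against knockdown gave -0.86 ± 0.67 (edgeR adjusted p = 0.980), which turned to 0.51 without knockdown replicate 2.

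The closest genes to Aqp1 were Fam196b, Cdhr1 and Nmb, with root mean square differences of 0.62, 0.64 and 0.64 on the log2 scale beside an SD of 1.15 for Aqp1, a looser match than for Kcnj13 and Clic6. Cdhr1 is a cadherin-related gene of the mitral and tufted neurons of the olfactory bulb, and Nmb encodes the peptide neuromedin B. Cdhr1 had 47.6 CPM in knockdown replicate 2 and 22.3 CPM in overexpression replicate 4, the first and second library in Aqp1 as well, and 2.33 to 9.35 CPM in the other 10. Knockdown replicate 2 had 7 counts of Folr1, 7 of Kcnj13 and 0 of Otx2, each below knockdown replicate 3 (10, 40 and 15 counts). Scaled to depth, Folr1 was nearly the same in both (0.276 and 0.285 CPM), while Kcnj13 was 0.276 and 1.14 CPM. The part of olfactory tissue in the level of Aqp1 was not tested.

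**Figure D2:**
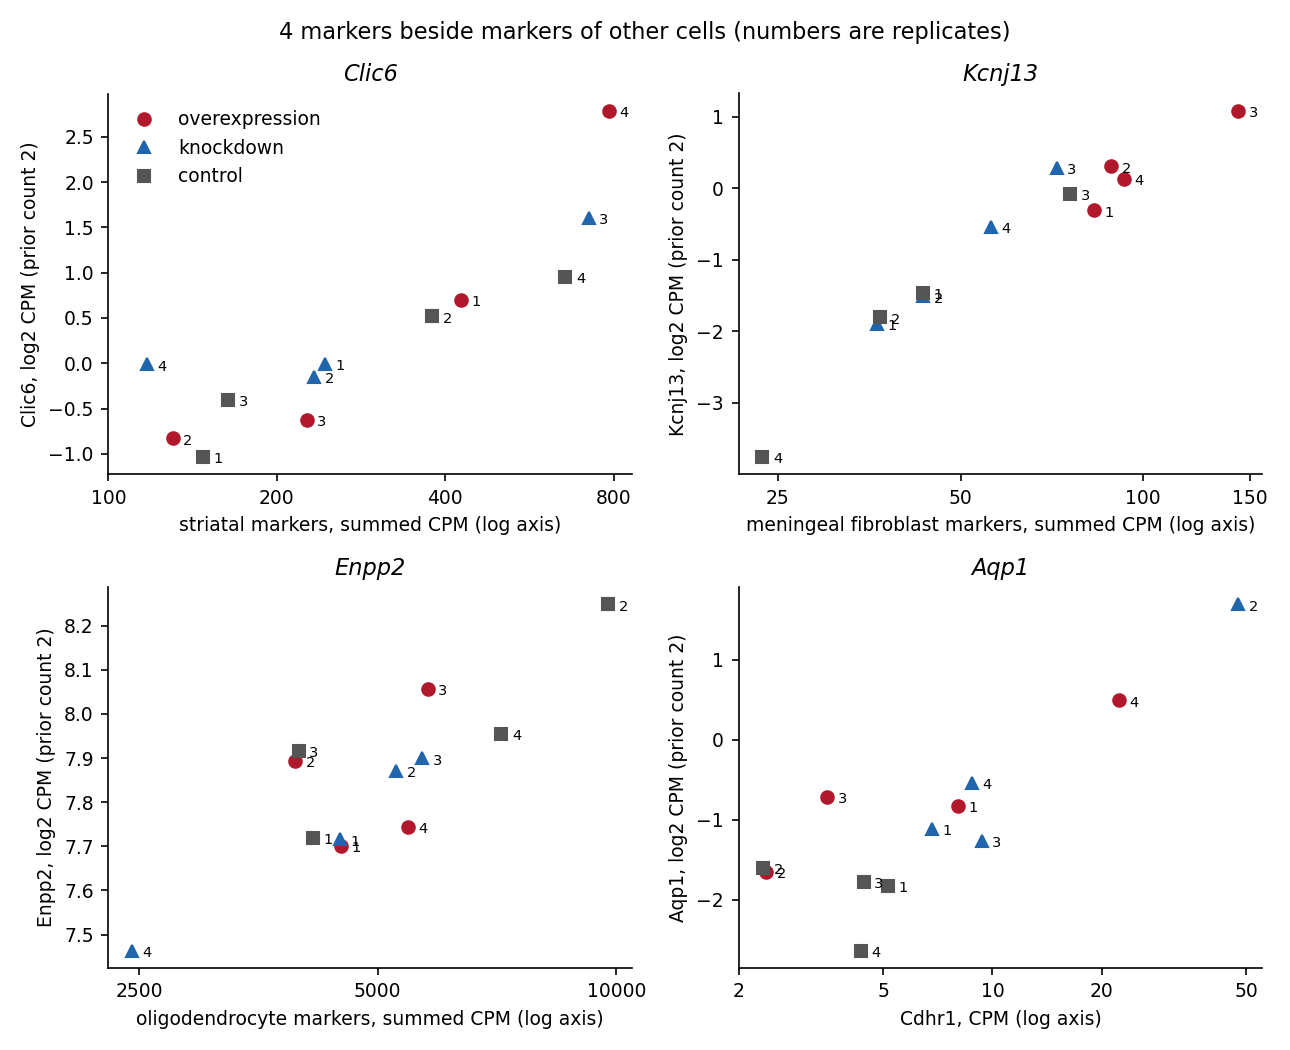
Log2 CPM (prior count 2) of Clic6, Kcnj13, Enpp2 and Aqp1 in each library (vertical axes) beside the summed CPM of striatal, meningeal fibroblast and oligodendrocyte markers and the CPM of Cdhr1 (horizontal axes, logarithmic). Red circles are overexpression, blue triangles knockdown and grey squares control libraries, numbered by replicate. In all 4 panels the library farthest right is also the highest, namely overexpression replicate 4, overexpression replicate 3, control replicate 2 and knockdown replicate 2. Cdhr1 was plotted because it was among the genes closest to Aqp1 in these libraries, so its match with Aqp1 was built in, and the other 3 marker sets were chosen after values had been seen.

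Enpp2 counts were 6822, 7783, 7441 and 4831 with overexpression, 4335, 5927, 8375 and 3462 with knockdown and 5090, 7164, 8856 and 5726 in controls. In CPM the groups overlapped, at 208 to 266 with overexpression, 176 to 239 with knockdown and 211 to 304 in controls. It was the only one of the 7 with negative values against control, a log2 value of -0.12 ± 0.12 for overexpression and -0.22 ± 0.12 for knockdown (edgeR adjusted p = 0.906 and 0.897). Without control replicate 2 they were -0.01 and -0.12. Control replicate 2, highest in Enpp2, was also highest in the 12 oligodendrocyte markers (9768 CPM, Mbp among them). Knockdown replicate 4, lowest in Enpp2, was lowest in these as well (2449 CPM), and the other 10 libraries had 3935 to 7164 CPM. The part of oligodendrocytes in the level of Enpp2 was not tested.

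Prlr (chromosome 15, 10177238 to 10349180, plus strand), the receptor for prolactin, had 20, 33, 26 and 17 counts with overexpression. It had 26, 12, 43 and 8 counts with knockdown and 11, 12, 31 and 16 in controls, and all 3 groups overlapped in CPM. The log2 values were 0.37 ± 0.36 for overexpression against control and 0.43 ± 0.36 for knockdown against control (edgeR adjusted p = 0.898 and 0.938). Overexpression against knockdown gave -0.05 ± 0.35 (edgeR adjusted p = 0.995), and its sign changed under several settings.

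**Figure D3:**
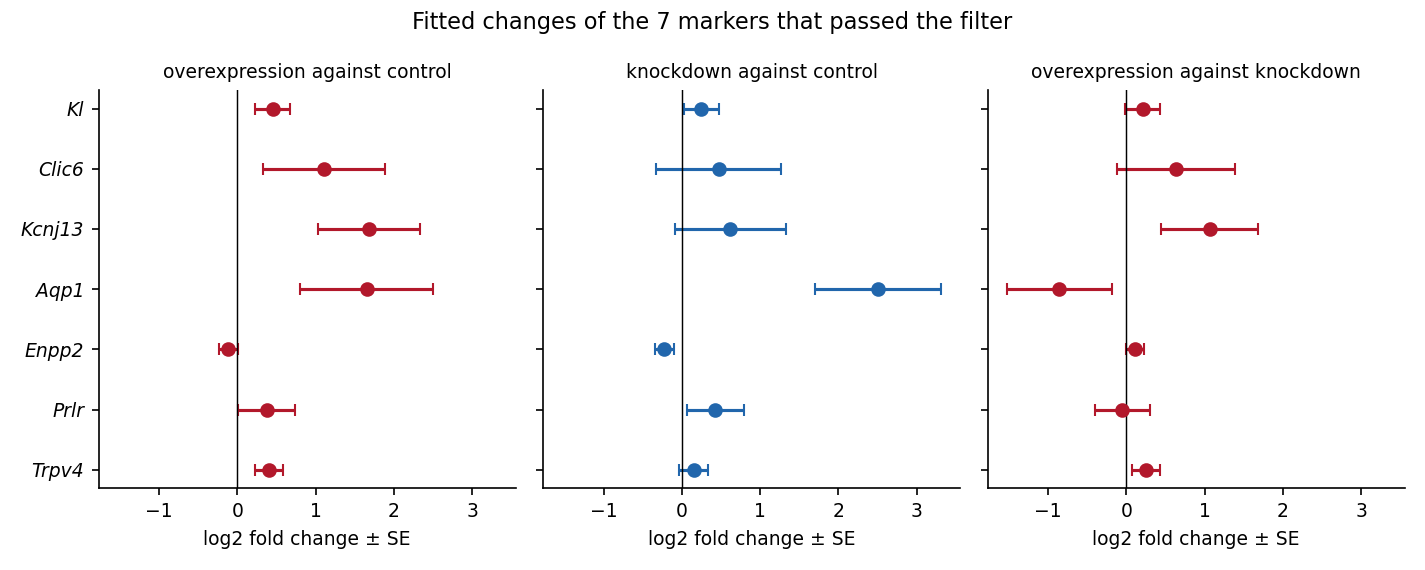
Fitted log2 fold changes (horizontal axes) with their SE for the 7 markers that passed the expression filter, in overexpression against control, knockdown against control and overexpression against knockdown. Kcnj13 (1.68) and Aqp1 (2.51) lie farthest from 0 against control, with SEs of 0.65 and 0.80, and no marker passed the adjusted threshold in any of the 3 comparisons.

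In knockdown against control, which asks whether a hairpin against Ttr went with less plexus RNA, no marker passed the test. EdgeR called 0 of the 7, DESeq2 and limma-voom also 0, with 0.00547% of all genes called by edgeR and 0.235% by DESeq2. Aqp1, higher with knockdown, was the only one of the 7 with an unadjusted edgeR p below 0.05, where 5.68% of all genes were below it and 3.85% were below it and higher. Aqp1 did not pass the filter with only the 2 groups fitted, and knockdown replicate 2 held most of its knockdown counts. Its p is therefore given as a description. With no filter 8 of the 10 were positive, beside 48.1% of all genes, with a median of 0.33 beside 0.00 over all genes. With the filter 6 of the 7 were positive, beside 51.8% of all genes, with a median of 0.43. With the filter and without knockdown replicate 3, 4 of the 8 markers tested were positive, beside 48.6% of all genes, with a median of 0.01. With any other single library left out, 6 or 7 of the 7 or 8 markers tested were positive, with medians of 0.25 to 0.48. In overexpression against knockdown 0 of the 7 passed in edgeR, DESeq2 and limma-voom, with 0.00547% of all genes called by edgeR and 0.0164% by DESeq2. None of the 7 had an unadjusted edgeR p below 0.05, against 5.1% of all genes, and none had every overexpression library above every knockdown library, against 1.23% of all genes. The comparisons with control share the 4 control libraries.

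The further plexus genes were also without a call. None of the 7 that passed the filter were called by edgeR in any comparison. In overexpression against control all 7 had positive log2 values, beside 51.4% of all genes, with a median of 0.61 beside 0.0038 over all genes. An unadjusted edgeR p below 0.05 was found for 6.26% of all genes and for 2 of the 7. These were Slc13a4, with at least 10.2 CPM in each overexpression library against 1.04 to 6.98 CPM in controls (a log2 value of 1.85 ± 0.49, edgeR adjusted p = 0.567), and Abca4, with 2.05 to 2.88 CPM against 1.39 to 1.49 CPM (0.76 ± 0.20, edgeR adjusted p = 0.567). Abca4 encodes a transporter of retinoids best known from photoreceptors. In neither gene did overexpression and control libraries overlap, as in 1.88% of all genes, each higher with overexpression. The secreted peptide gene 1500015O10Rik (0.83 ± 0.42, edgeR adjusted p = 0.826) and the homeobox gene Msx1 (0.61 ± 0.30, edgeR adjusted p = 0.819) came next. In knockdown against control 5 of the 7 were positive, beside 51.8% of all genes, with a median of 0.12. An unadjusted edgeR p below 0.05 was found for 0 of the 7 there, against 5.68% of all genes. In overexpression against knockdown 7 of the 7 were positive, beside 50.1% of all genes, with a median of 0.36. There 3 had an unadjusted edgeR p below 0.05, against 5.1% of all genes. Meningeal fibroblast markers had a median of 1.13 in overexpression against control with 11 of 11 positive, and 0.26 in knockdown against control with 7 of 11 positive, and 0 were called in either. At an unadjusted edgeR p below 0.05 there were 10 of these 11 in overexpression against control, beside 6.26% of all genes. There was 1 in knockdown against control, beside 5.68%, and 9 in overexpression against knockdown, beside 5.1%. Of 7 mural cell markers 6 were positive in overexpression against control and 4 had an unadjusted edgeR p below 0.05, with 0 called, and their sum was 216 to 295 CPM with overexpression against 190 to 210 CPM in controls. All 6 endothelial cell markers were positive in overexpression against control, 3 with an unadjusted edgeR p below 0.05 and 0 called. Of 12 oligodendrocyte markers 0 were positive there, and of 7 cortical excitatory neuron markers 1. Knockdown against control was similar in these lists, with 6 of 7 mural and 6 of 6 endothelial markers positive. Of these, 3 mural and 1 endothelial had an unadjusted edgeR p below 0.05, beside 5.68% of all genes, and 0 were called. Of the oligodendrocyte markers 0 of 12 were positive in knockdown against control, and of the cortical excitatory neuron markers 2 of 7. The part of meningeal, mural and endothelial cells in the plexus list was not tested.

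The ratio of Ttr to the markers was set by the vector in the overexpression group and is given there as a description. In overexpression libraries there were 62.1, 37.7, 22.3 and 5.63 counts of Ttr for each count of the 9 markers other than Enpp2, in replicates 1 to 4. In knockdown libraries there were 0.0184, 0.202, 0.0661 and 0.0890, and in controls 0.0946, 1.29, 0.0703 and 0.103. The 9 markers summed to 6.90 to 16.7 CPM with overexpression, 7.44 to 12.5 CPM with knockdown and 6.12 to 7.58 CPM in controls. The highest of these sums, in overexpression replicate 4, held 6.83 CPM of Clic6.

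**Figure D4:**
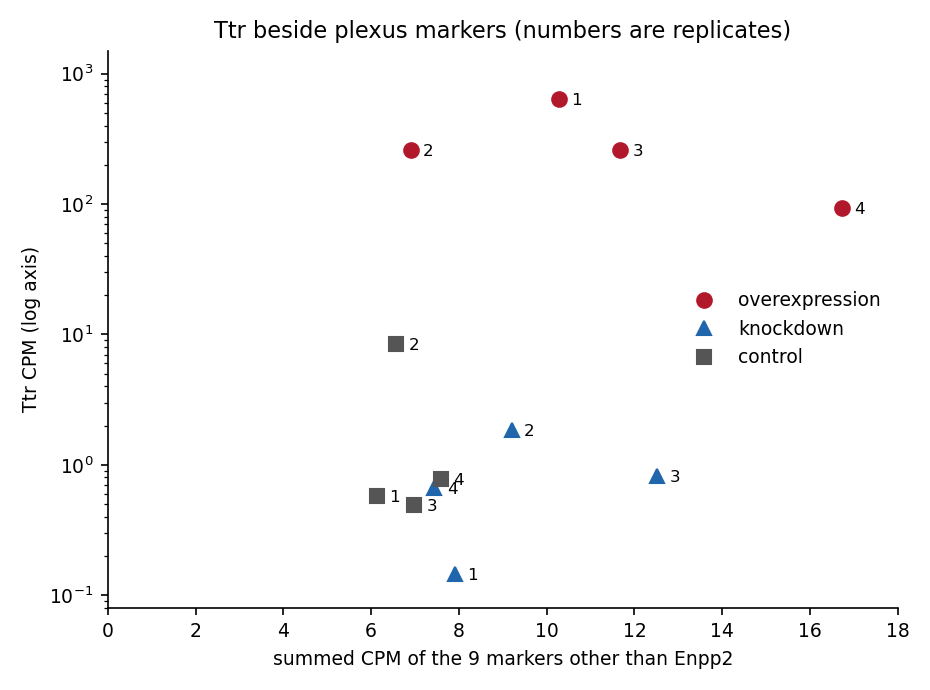
CPM of Ttr (vertical axis, logarithmic) beside the summed CPM of the 9 markers other than Enpp2 (horizontal axis) in each library, with overexpression as red circles, knockdown as blue triangles and control as grey squares, numbered by replicate. Control replicate 2 has the highest Ttr of the 8 libraries without the Ttr vector (8.49 CPM) and the second lowest sum of markers among these 8 (6.58 CPM).

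Where no Ttr vector was given, the library richest in Ttr was control replicate 2. It had 200 counts of Ttr, 8.49 CPM against 0.491 to 0.780 CPM in the other 3 controls. Beside these it had 7 counts of Folr1, 5 of Kcnj13, 1 of Otx2 and 32 of Clic6, each within the range of the other 3 controls in CPM. Its 6 counts of Aqp1 (0.255 CPM against 0.0867 to 0.218 CPM) and 11 counts of Sostdc1 (0.467 CPM against 0.218 to 0.372 CPM) were the highest of the controls, and Sostdc1 was also above the 4 knockdown libraries. Its Enpp2 was the highest of all 12 libraries at 304 CPM, and its Trpv4 (1.02 CPM) and Kl (2.42 CPM) were the lowest of the controls. Knockdown replicate 2, next in Ttr with 47 counts (1.86 CPM), was the library with 80 counts of Aqp1. Knockdown replicate 3, with the most counts of Otx2 and Kcnj13 among the 8, had 29 counts of Ttr (0.826 CPM).

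Over these 8 libraries log2 CPM of Ttr was set against each gene by Pearson's r, with an exact two-sided permutation test and adjustment over 18291 genes. No marker passed, and 0 of all genes did with Pearson's r or Spearman's rho, the smallest adjusted p being 0.454 and 0.865 from the exact permutation test. With 8 libraries the exact permutation p has a floor, and a gene alone at that floor has an adjusted p of 0.454. No gene could pass on its own, so the lack of a call cannot decide whether a marker went with Ttr. Of the 10 markers 5 had r above 0, as had 49.5% of all genes. Enpp2 had the highest, r = 0.70 (exact permutation p = 0.0599, adjusted p = 0.940; rho = 0.52, exact permutation p = 0.197). Folr1 came next with r = 0.50 (exact permutation p = 0.200, adjusted p = 0.999; rho = 0.76, exact permutation p = 0.0368, adjusted p = 0.865). Trpv4 had the lowest, r = -0.82 (exact permutation p = 0.00623, adjusted p = 0.880; rho = -0.55, exact permutation p = 0.171). Without control replicate 2 and knockdown replicate 1, the 2 libraries farthest from the median of Ttr, r was 0.22 for Enpp2, 0.52 for Folr1 and -0.40 for Trpv4. The relations of Enpp2 and Trpv4 were thus weaker without those libraries. They are the highest and the lowest of the 8 in Ttr, and a narrower range can lower r by itself. The same step gave r = 0.81 for Aqp1 (exact permutation p = 0.0861, adjusted p = 0.999), against 0.16 over all 8 libraries. Centred on the mean of each group, r was 0.67 for Enpp2, 0.58 for Folr1 and -0.81 for Trpv4. The 8 points pool both groups, and with 4 libraries in each no value within a single group is given.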

How the data were processed

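Gene counts and TPM of the 12 libraries were used, grouped by the titles in the labels. Per the labels' protocols, poly(A) RNA was made into libraries with a directional kit and UMI adaptors. The submitters' processing notes list featureCounts, UMI-tools, DESeq2, bcl2fastq and the build GRCm38. The aligner, the annotation and the strand setting were not given in the sources used here. The authors deposited raw counts per gene. The authors also deposited TPM, which equalled the counts divided by one length per gene and scaled (16476 genes compared, 100% within 0.01 on the log2 scale).

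Of 55401 identifiers 55141 were matched to symbols of GENCODE M21, and the other 260 held 0.00474% of all counts. Counts were tested with edgeR 4.0.16 in R 4.3.3 (quasi-likelihood test, TMM factors, default filter by group, 1 fit to all 12 libraries with 3 group means), two-sided, with Benjamini-Hochberg adjustment over 18289 genes and a threshold of 0.05. No p was adjusted over the markers alone. Log2 CPM used a prior count of 2. Library totals of 19879629 to 37166146 counts mean that most markers rest on few counts per library. A count of 0 in a single library allows an expected count of up to 3, for counting error only. The steps were tested on simulated data. Alternatives were other scaling, no filter, DESeq2 1.42.0, limma 3.58.1 (voom, and log2(TPM + 0.1)), fits of 2 groups, the replicate number as a block and each library left out.

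The members, the gene lists and the alternatives were chosen with earlier results of these data known, and the olfactory bulb genes and the fit without the 3 libraries highest in striatal markers were added after values had been seen. Named genes are Ttr, the 10 markers, up to 4 further plexus genes with the smallest p, the 3 genes closest in log2 CPM to each of the 3 most variable markers tested, and up to 2 of the most abundant markers of each cell type list. Genes named for their low counts, the genes of the olfactory bulb list and Gigyf2 were chosen after values had been seen. Counts of libraries in the same group differed by more than sampling noise in every pair (chi-square per degree of freedom 5.37 to 28.4).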

Additional observations from a re-analysis of the deposited data

Results flagged for a closer look

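Dixon's test for a single value far from the other 3 of its group marked 4 of the 33 groups of 4 libraries examined. Examined were the 10 markers and Ttr in each of 3 groups, in CPM. The test marks about 1 in 20 where values are normally distributed, which low counts need not be. The share marked over all genes was not counted, so 4 of 33 is not read as an excess. Clic6 in overexpression replicate 4 had 6.83 CPM, against 0.489 to 1.55 CPM in the other 3 overexpression libraries. Clic6 in knockdown replicate 3 had 2.96 CPM, against at most 0.921 CPM in the other 3 knockdown libraries. These are the 2 libraries highest in striatal markers. Aqp1 in knockdown replicate 2 had 3.16 CPM, against 0.342 to 0.612 CPM in the other 3, and this library was highest in the 4 olfactory bulb genes. Ttr in control replicate 2 had 8.49 CPM, against 0.491 to 0.780 CPM in the other 3 controls, and this library was highest in oligodendrocyte markers (9768 CPM).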

How the results depend on the processing

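The number of markers called was 0 in each of the 3 comparisons under every alternative run. The number of all genes called was 1 in each comparison. For overexpression against control it was 20 with no filter on low counts, 38 with DESeq2, 0 with limma-voom, 0 with only the 2 groups compared and 0 with the 3 libraries highest in striatal markers left out (a fit chosen after seeing the data), and 0 to 4 when single libraries were left out. For knockdown against control it was 22 with no filter, 43 with DESeq2, 0 with the deposited TPM, 2 with only the 2 groups compared, 0 with the replicate block and 0 with those 3 libraries left out, and 0 to 10 when single libraries were left out. For overexpression against knockdown it was 3 with DESeq2, 0 with limma-voom, 2 with the replicate block and 0 with those 3 libraries left out, and 0 to 2 when single libraries were left out. The replicate numbers share no stated origin, and same-numbered libraries did not deviate together (correlations of -0.34 to 0.16), so the block is given for completeness.

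Directions of the markers turned in few cases. In overexpression against control Clic6 ranged from -0.28 to 1.49 on the log2 scale when single libraries were left out. In knockdown against control Clic6 ranged from -0.26 to 0.86, Kcnj13 from -0.11 to 1.77 (-0.48 with the 3 libraries highest in striatal markers left out) and Ttr from -2.03 to 0.60. In overexpression against knockdown Clic6 ranged from -0.74 to 1.36 (-0.11 with limma-voom, -0.0167 without those 3 libraries) and Aqp1 from -1.42 to 0.51. Prlr ranged from -0.26 to 0.22 there (0.0636 with limma-voom, 0.0768 with the deposited TPM, 0.0120 with the replicate block, 0.26 without those 3 libraries). The correlation of Ttr with Kcnj13, -0.10 over 8 libraries, was 0.00020 once centred on the group means. Ttr in overexpression against control kept its direction in every alternative, while its adjusted p was above the threshold with limma-voom (0.173), with only the 2 groups compared (0.264), without those 3 libraries (edgeR adjusted p = 0.0942) and without overexpression replicate 3 or control replicates 1, 3 or 4 (0.0506 to 0.162). The causes were not tested. Depth limits Folr1, Otx2, Sostdc1 and Aqp1 most, since most of their counts per library were under 20.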
